A study of Mus musculus with 24 samples.

Results

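The Kruppel-like factor genes Klf2, Klf3, Klf4, Klf5, Klf6, Klf7, Klf9, Klf10, Klf11 and Klf13 were followed across 24 RNA-seq libraries of LLC1 cells, an established mouse Lewis lung carcinoma line. These 10 genes were chosen by name from a wider family of 17, with their values in the same libraries known. Their levels and differences are therefore given as a description, without single p-values. Where they are called higher or lower in the fit over all genes (adjusted p under 0.05), that is description too, and no test is claimed for them. They are 10 of 28328 genes for which transcript levels could be summed, and all 10 were among the 12581 that reached 1 TPM in 3 or more libraries. TPM (transcripts per 1000000) is a length-corrected share of all transcripts in a library, so levels of different genes can be compared on it.

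The 8 groups held 3 libraries each. Untreated cells received 0.1% DMSO, the solvent. Chemotherapy was 2.5 µM cisplatin, which crosslinks DNA, with 2.5 µM pemetrexed, an antifolate that blocks nucleotide synthesis. Trametinib, an inhibitor of the kinases MEK1 and MEK2, was given at 10 nM, and the combination was all 3 drugs together. RNA was taken after 6 h and 24 h, and every group came from the same line with no genetic change named in the labels.

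Kruppel-like factors are DNA-binding proteins that end in a run of C2H2 zinc fingers and bind GC-rich and CACCC-type sites, as do the related SP factors. The parts of the proteins outside the fingers differ and set their action: Klf2, Klf4, Klf5, Klf6 and Klf7 can recruit acetyltransferases and often activate, Klf3 binds the corepressor CtBP, and Klf9, Klf10, Klf11 and Klf13 bind the corepressor Sin3. Many family members are quickly induced genes with unstable mRNA. MEK passes its signal to the kinase ERK, and a parallel branch runs through MEK5 and ERK5 to the MEF2 factors, which are known inducers of Klf2 and Klf4.

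The libraries showed the keratins that LLC1 cells are known to express and little of other cell types. The number of genes at 1 TPM or more was 11242 to 11851, and log2 levels of libraries of 1 group correlated at 0.982 to 0.994. Krt8 and Krt18 had means of 136 and 223 TPM, while the lung epithelial markers Epcam, Cdh1, Nkx2-1 and Sftpc stayed at or below 0.226 TPM, so the epithelial label rests on the keratins. Adgre1 and Cd3e, defining markers of macrophages and T cells, were listed at 0 in all 24 libraries, and Ptprc, the pan-leukocyte marker, did not exceed 0.0121 TPM. Of the 5 macrophage markers 2 passed the filter, Cd68 and Lyz2, and of the 4 endothelial markers 1, Pecam1. The summed macrophage list lay between 4.69 and 41.1 TPM and its mean was 39.0 TPM with chemotherapy at 24 h against 13.1 TPM in untreated cells, nearly all of it Cd68. The summed endothelial list had means of 9.79 and 3.15 TPM in the same groups. The fibroblast list, of which 3 of 4 markers passed, averaged 15.9 TPM under trametinib, 15.2 TPM under the combination and 4.43 TPM in untreated cells at 24 h. The part of these markers in the levels below was not tested.

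The zinc fingers show how closely the described genes are related, and are printed for the 3 pairs whose finger bases are most alike. Each stretch is the coding strand, 5′ to 3′, of the 3 fingers of the main transcript in the GENCODE M21 set of GRCm38, from the first zinc-binding cysteine to the last zinc-binding histidine. The capitals mark the codons of the zinc-binding cysteines and histidines.
Klf2: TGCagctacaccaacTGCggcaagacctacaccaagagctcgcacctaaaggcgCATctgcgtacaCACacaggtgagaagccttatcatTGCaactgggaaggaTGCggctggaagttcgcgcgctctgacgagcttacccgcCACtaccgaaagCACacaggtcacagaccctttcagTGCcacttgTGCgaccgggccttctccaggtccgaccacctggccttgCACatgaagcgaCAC
Klf4: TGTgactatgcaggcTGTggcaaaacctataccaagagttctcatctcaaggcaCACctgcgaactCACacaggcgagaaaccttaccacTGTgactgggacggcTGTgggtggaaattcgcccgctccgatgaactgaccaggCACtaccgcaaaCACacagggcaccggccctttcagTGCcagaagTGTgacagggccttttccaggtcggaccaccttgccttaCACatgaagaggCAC
Klf6: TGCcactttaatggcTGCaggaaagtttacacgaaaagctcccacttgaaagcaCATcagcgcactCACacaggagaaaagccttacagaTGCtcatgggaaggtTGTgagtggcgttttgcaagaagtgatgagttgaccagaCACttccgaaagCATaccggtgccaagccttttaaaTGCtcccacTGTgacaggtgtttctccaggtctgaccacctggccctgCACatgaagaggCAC
Klf7: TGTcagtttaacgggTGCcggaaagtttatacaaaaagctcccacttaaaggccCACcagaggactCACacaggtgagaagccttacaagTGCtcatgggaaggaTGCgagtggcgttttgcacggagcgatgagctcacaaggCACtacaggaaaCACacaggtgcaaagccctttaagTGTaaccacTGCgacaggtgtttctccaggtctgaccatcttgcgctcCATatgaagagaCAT
Klf10: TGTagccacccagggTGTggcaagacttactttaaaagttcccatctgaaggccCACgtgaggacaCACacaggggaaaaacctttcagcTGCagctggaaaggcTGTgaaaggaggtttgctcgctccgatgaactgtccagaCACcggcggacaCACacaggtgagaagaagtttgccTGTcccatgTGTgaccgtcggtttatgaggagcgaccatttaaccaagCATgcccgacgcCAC
Klf11: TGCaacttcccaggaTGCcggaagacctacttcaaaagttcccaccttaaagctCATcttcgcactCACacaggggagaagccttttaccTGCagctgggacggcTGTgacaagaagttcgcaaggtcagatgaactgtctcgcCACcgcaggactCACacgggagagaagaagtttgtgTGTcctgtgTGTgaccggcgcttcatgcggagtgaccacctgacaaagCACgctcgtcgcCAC
All 10 genes code for 3 fingers within 243 bases, or 81 residues. Klf6 and Klf7 were identical at 95.1% of these residues and 81.1% of the bases, Klf2 and Klf4 at 91.4% and 78.2%, and Klf10 and Klf11 at 86.4% and 76.1%. The longest run of bases that Klf6 and Klf7 share in the stretch was 26. Over whole transcripts, no run of 31 bases occurred in a described gene and in another Klf gene, so reads of that length or longer cannot match both in full. Runs of 31 bases shared with other genes made up at most 0.77% of a described gene, in Klf13.

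Of the 17 Kruppel-like factor genes, Klf16 was the only one outside the 10 that passed the filter, with 19.4 to 39.4 TPM. Klf1, Klf8, Klf15 and Klf17 stayed at or below 0.212 TPM, and Klf12 and Klf14 were listed at 0 in every library. Klf6, a factor induced by tissue injury that can activate the cell cycle inhibitor p21, was the most abundant, with a mean of 67.1 TPM over all libraries, and Klf16 came next with 25.8 TPM. Among the other described genes, Klf10, Klf7, Klf13, Klf3 and Klf9 had means between 11.5 and 17.5 TPM. Klf4, Klf5, Klf11 and Klf2 had means between 2.51 and 5.39 TPM.

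**Figure D1:**
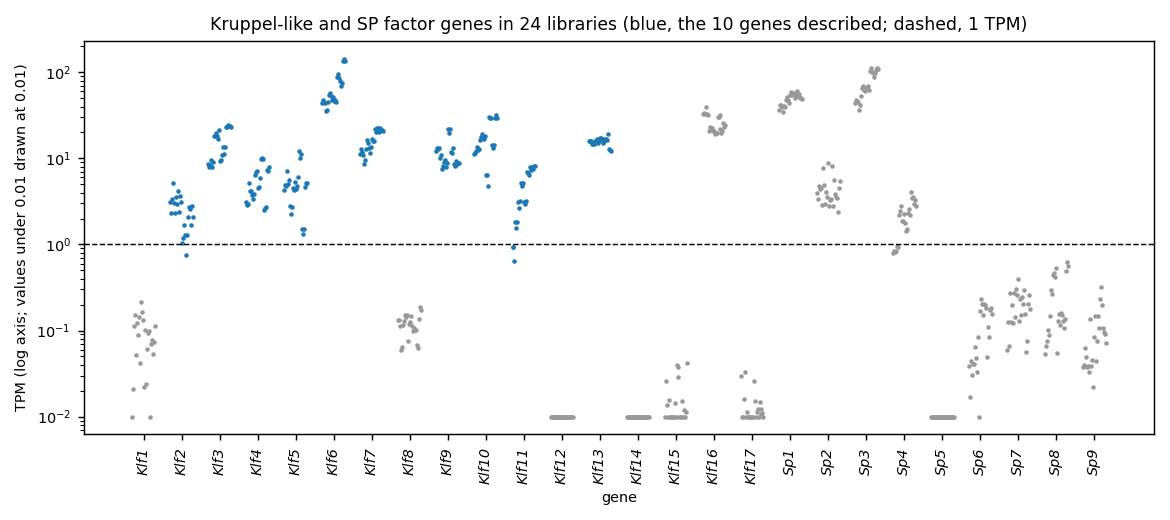
Level of every Kruppel-like factor and SP factor gene in TPM, on a log axis, with 1 point per library and the 10 described genes in blue. Values under 0.01 TPM are drawn at 0.01, and the dashed line stands at 1 TPM. Klf6 lies highest of the Klf genes at 35.8 to 144 TPM, and the Klf genes drawn in grey other than Klf16 lie under 0.212 TPM or at it.

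Each described gene was read as the sum of its transcripts, most of which came from 1 main transcript. The main transcripts were ENSMUST00000067912.7 for Klf2, ENSMUST00000165536.7 for Klf3, ENSMUST00000107619.2 for Klf4, ENSMUST00000005279.7 for Klf5, ENSMUST00000000080.7 for Klf6, ENSMUST00000114086.7 for Klf7, ENSMUST00000036884.2 for Klf9, ENSMUST00000074043.6 for Klf10, ENSMUST00000020982.6 for Klf11 and ENSMUST00000063694.9 for Klf13. Over all 24 libraries the number of transcripts with a mean of at least 1 TPM was 1 for all 10 genes, so none met the limit set for a test of transcript shares, which asked for a second such transcript. In Klf3 the shorter Klf3-202 took a mean of 23.4% of the gene's TPM in untreated cells at 24 h and up to 36.2% in 1 library, against 3.82% over all libraries. In Klf7 the transcript Klf7-201 took 5.13%.

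The activating members are described first. Klf2, known for keeping endothelium and T cells quiescent, lies on chromosome 8 (72319033 to 72321656, plus strand, GRCm38). After 6 h the libraries read 3.12, 2.30 and 3.37 TPM untreated, 5.13, 2.995 and 2.30 TPM under chemotherapy, 3.51, 2.95 and 4.16 TPM under trametinib and 2.39, 3.63 and 3.15 TPM under the combination. All 4 groups overlapped at 6 h. After 24 h the libraries read 1.04, 1.17 and 1.68 TPM untreated, 1.28, 0.763 and 1.29 TPM under chemotherapy, 2.11, 2.72 and 2.61 TPM under trametinib and 1.67, 2.81 and 2.06 TPM under the combination. Every trametinib library lay above every untreated one at 24 h, and 1 combination library, at 1.67 TPM, fell just under the highest untreated one. The log2 difference from untreated cells at 24 h, on the log2(TPM + 1) scale that holds for every difference here and understates changes of low genes, was 0.60 ± 0.20 (standard error, n = 3 libraries a group) with trametinib and 0.46 ± 0.20 with the combination.

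The promoter of Klf2 is shown because MEF2 factors are known to act on it. The stretch runs over chr8:72318812-72319032 (GRCm38.p6, plus strand) and ends 1 base before the annotated start of the gene. The capitals mark matches to the GC box and to the MEF2 motif.
Klf2 promoter: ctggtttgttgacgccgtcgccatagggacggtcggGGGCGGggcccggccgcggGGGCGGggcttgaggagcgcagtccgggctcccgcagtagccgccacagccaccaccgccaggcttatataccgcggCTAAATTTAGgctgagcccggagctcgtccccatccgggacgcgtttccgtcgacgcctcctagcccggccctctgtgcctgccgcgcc
It holds 2 GC boxes and 1 MEF2 match. Among 27025 promoters of 250 bases, 32.9% held a GC box, searched as GGGCGG on both strands, and 3.0% a MEF2 match.

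Klf4, a factor that represses proliferation in epithelia and can activate p21, lies on chromosome 4 (55527143 to 55532466, minus strand). The 6 h libraries gave 3.13, 2.88 and 2.92 TPM untreated, 5.20, 4.22 and 4.15 TPM under chemotherapy, 3.73, 3.39 and 3.83 TPM under trametinib and 6.45, 6.86 and 7.20 TPM under the combination. No 2 of these groups overlapped, and the order was untreated, trametinib, chemotherapy, combination. The 24 h libraries gave 4.53, 4.70 and 5.87 TPM untreated, 9.94, 10.2 and 9.76 TPM under chemotherapy, 2.51, 2.63 and 2.74 TPM under trametinib and 7.38, 7.21 and 8.003 TPM under the combination. At 24 h 38.0% of all genes lay wholly above untreated cells with chemotherapy and 42.6% with the combination. With trametinib 29.6% lay wholly below. The 4 groups of Klf4 were again apart, but trametinib now lay lowest and chemotherapy highest. Against untreated cells the log2 difference at 24 h was 0.87 ± 0.08 with chemotherapy, -0.73 ± 0.08 with trametinib and 0.51 ± 0.08 with the combination.

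The promoter of Klf4, which lay above untreated cells under trametinib at 6 h and below them at 24 h with no overlap of libraries, spans chr4:55532476-55532725 (GRCm38.p6, minus strand, printed 5′ to 3′ on that strand). The capitals mark GC boxes and 1 E-box, and matches that overlap run together.
Klf4 promoter: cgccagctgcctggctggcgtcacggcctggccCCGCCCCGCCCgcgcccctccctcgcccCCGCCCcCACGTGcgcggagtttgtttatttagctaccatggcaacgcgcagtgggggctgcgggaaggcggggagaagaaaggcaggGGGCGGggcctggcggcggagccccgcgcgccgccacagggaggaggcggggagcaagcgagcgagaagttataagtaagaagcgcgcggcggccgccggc
It holds 4 GC boxes and 1 E-box (CACGTG), which 6.0% of all promoters hold. No MEF2 match was found in this window.

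Klf5, a factor of proliferating epithelial cells that promotes growth, lies on chromosome 14 (99298691 to 99315036, plus strand). After 6 h the libraries read 4.25, 4.84 and 4.75 TPM untreated, 7.14, 5.09 and 5.61 TPM under chemotherapy, 2.81, 2.25 and 2.74 TPM under trametinib and 4.56, 4.34 and 5.31 TPM under the combination. After 24 h the libraries read 4.45, 4.78 and 6.01 TPM untreated, 12.1, 10.04 and 11.2 TPM under chemotherapy, 1.51, 1.31 and 1.51 TPM under trametinib and 4.64, 5.13 and 5.15 TPM under the combination. The mean was highest under chemotherapy and lowest under trametinib at both times, and the combination overlapped untreated cells at both. The log2 difference at 24 h was 1.00 ± 0.11 with chemotherapy, -1.31 ± 0.11 with trametinib and -0.02 ± 0.11 with the combination. From the lowest to the highest group mean, 1.44 to 11.1 TPM, Klf5 spanned 7.71-fold.

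Klf6, on chromosome 13 (5861482 to 5870394, plus strand), differed little between groups at 6 h. The 6 h libraries gave 43.7, 47.6 and 45.2 TPM untreated, 44.1, 35.8 and 36.8 TPM under chemotherapy, 45.2, 53.8 and 57.7 TPM under trametinib and 53.6, 47.8 and 52.00 TPM under the combination. The combination libraries lay just above the untreated ones, and the other treatments overlapped them. The 24 h libraries gave 45.9, 47.7 and 44.8 TPM untreated, 88.9, 95.9 and 86.3 TPM under chemotherapy, 78.5, 70.00 and 74.6 TPM under trametinib and 134, 144 and 136 TPM under the combination. At 24 h 38.0%, 35.5% and 42.6% of all genes lay wholly above untreated cells with chemotherapy, trametinib and the combination. For Klf6 none of the 4 groups overlapped at 24 h, and the combination was 2.99-fold the untreated mean. The log2 differences at 24 h were 0.95 ± 0.08 with chemotherapy, 0.68 ± 0.08 with trametinib and 1.56 ± 0.08 with the combination. Klf6 alone made up 53.7% of the summed TPM of the 10 genes with the combination at 24 h and 35.2% in untreated cells.

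Klf7, the closest relative of Klf6 and known for its part in the growth of neurons, lies on chromosome 1 (64029447 to 64122282, minus strand). After 6 h the libraries read 11.3, 12.9 and 11.8 TPM untreated, 11.00, 8.53 and 9.60 TPM under chemotherapy, 12.9, 16.2 and 15.04 TPM under trametinib and 13.2, 11.5 and 13.7 TPM under the combination. After 24 h the libraries read 16.9, 15.8 and 15.8 TPM untreated, 22.2, 20.03 and 22.5 TPM under chemotherapy, 22.8, 20.4 and 22.6 TPM under trametinib and 21.3, 21.2 and 20.7 TPM under the combination. The chemotherapy libraries lay under the untreated ones at 6 h and above them at 24 h. The 3 treatments overlapped each other at 24 h, with log2 differences from untreated cells of 0.39 ± 0.09, 0.42 ± 0.09 and 0.36 ± 0.09 in the order chemotherapy, trametinib, combination.

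**Figure D2:**
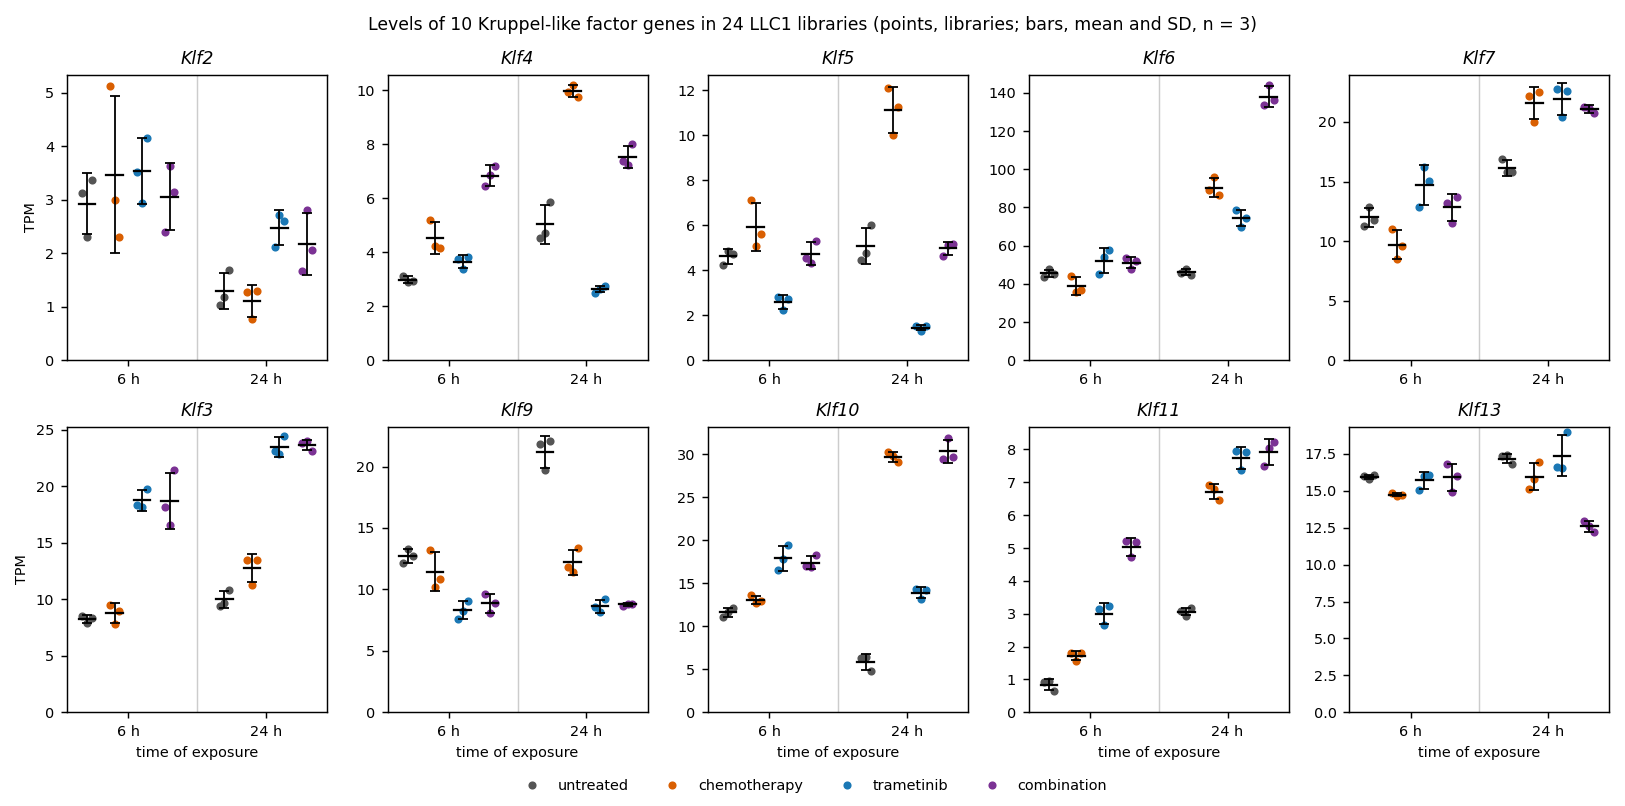
Level of each of the 10 genes in TPM (vertical axes start at 0 and differ between panels) by time of exposure and treatment, with points for libraries and bars for the mean and SD of 3. Klf3 is about the same with trametinib and with the combination at both times (18.8 and 18.7 TPM at 6 h, 23.5 and 23.7 TPM at 24 h), while Klf6 is highest with the combination at 24 h, at 138 TPM.

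Klf3, the CtBP-binding repressor, which acts in red cell and fat cell formation, followed trametinib. It lies on chromosome 5 (64803388 to 64832901, plus strand). The 6 h libraries gave 8.54, 7.90 and 8.31 TPM untreated, 9.53, 7.85 and 8.95 TPM under chemotherapy, 18.3, 18.1 and 19.8 TPM under trametinib and 18.1, 16.6 and 21.5 TPM under the combination. The 24 h libraries gave 9.43, 9.68 and 10.8 TPM untreated, 13.5, 11.3 and 13.5 TPM under chemotherapy, 23.1, 22.9 and 24.5 TPM under trametinib and 23.8, 24.02 and 23.2 TPM under the combination. All 12 libraries with trametinib in the medium lay above all 12 without it. The log2 difference was 1.09 ± 0.08 with trametinib and 1.09 ± 0.08 with the combination at 6 h, and 1.16 ± 0.08 and 1.17 ± 0.08 at 24 h. Adding chemotherapy to trametinib moved Klf3 by -0.01 ± 0.08 at 6 h and 0.01 ± 0.08 at 24 h.

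The promoter of Klf3 is printed beside that of Klf9, since the genes lay on opposite sides of untreated cells under trametinib. The Klf3 stretch spans chr5:64803271-64803387 (GRCm38.p6, plus strand) and stops at the annotated start, and the Klf9 stretch spans chr19:23140976-23141225 (plus strand). The capitals mark GC boxes and CACCC boxes in Klf3, and a FOXO match, an AP-1 match and a CACCC box in Klf9, on either strand and with overlapping matches run together.
Klf3 promoter: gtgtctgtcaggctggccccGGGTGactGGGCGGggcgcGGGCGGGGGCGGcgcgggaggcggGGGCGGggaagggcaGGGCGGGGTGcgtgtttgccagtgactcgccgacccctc
Klf9 promoter: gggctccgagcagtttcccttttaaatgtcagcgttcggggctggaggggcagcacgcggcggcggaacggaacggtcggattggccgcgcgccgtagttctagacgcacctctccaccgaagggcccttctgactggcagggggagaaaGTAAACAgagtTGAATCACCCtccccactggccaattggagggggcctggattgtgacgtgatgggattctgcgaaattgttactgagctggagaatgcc
The full window of 250 bases before the RefSeq start of Klf3 held 6 GC boxes and 5 CACCC boxes, and that of Klf9 held no GC box. CACCC, searched on both strands, was in 51.3% of all promoters, the AP-1 motif TGANTCA in 6.9% and the FOXO motif GTAAACA in 3.1%. Of the 8 described genes with an entry in the promoter table, 7 held a GC box and 5 a CACCC box, and their median GC content was 71.4% against 52.0% over all promoters. No match to the ETS motif CCGGAA, the CRE motif TGACGTCA or the CArG motif was found in these 8 windows. Over all promoters these were in 12.2%, 1.6% and 1.4%, so their absence from 8 windows is not read as a trait of the genes.

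Klf9, a Sin3-binding repressor induced by glucocorticoids and by oxidative stress, lies on chromosome 19 (23141226 to 23168134, plus strand). After 6 h the libraries read 12.1, 13.3 and 12.7 TPM untreated, 13.2, 10.2 and 10.8 TPM under chemotherapy, 7.61, 8.23 and 9.06 TPM under trametinib and 9.63, 8.04 and 8.90 TPM under the combination. After 24 h the libraries read 21.8, 19.7 and 22.1 TPM untreated, 11.9, 11.4 and 13.4 TPM under chemotherapy, 8.53, 8.14 and 9.22 TPM under trametinib and 8.65, 8.85 and 8.85 TPM under the combination. At 24 h 27.3%, 29.6% and 26.85% of all 12581 genes lay wholly below untreated cells with chemotherapy, trametinib and the combination. Klf9 was the only one of the 10 to do so with all 3 treatments, which was not counted over all genes. The untreated mean was higher at 24 h than at 6 h, 21.2 ± 1.31 against 12.7 ± 0.560 TPM (SD, n = 3), while the trametinib means were 8.63 and 8.30 TPM, so the larger difference at 24 h came with a higher untreated level. The log2 difference at 24 h was -0.75 ± 0.09 with chemotherapy, -1.20 ± 0.09 with trametinib and -1.18 ± 0.09 with the combination.

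Klf10 and Klf11, Sin3-binding repressors known as TGF-beta inducible early genes, were both above untreated cells with every treatment, but with different patterns. Klf10 lies on chromosome 15 (38291463 to 38300706, minus strand). The 6 h libraries gave 11.1, 11.6 and 12.2 TPM untreated, 13.6, 12.7 and 12.9 TPM under chemotherapy, 16.5, 17.8 and 19.4 TPM under trametinib and 17.03, 16.9 and 18.2 TPM under the combination. The 24 h libraries gave 6.36, 6.47 and 4.83 TPM untreated, 30.2, 29.8 and 29.1 TPM under chemotherapy, 14.3, 13.2 and 14.2 TPM under trametinib and 29.5, 31.8 and 29.6 TPM under the combination. Chemotherapy and the combination overlapped at 24 h, both far above trametinib. Chemotherapy was 5.04-fold the untreated mean at 24 h, a log2 difference of 2.16 ± 0.08, and the combination 5.15-fold, 2.19 ± 0.08. The untreated level was itself lower at 24 h than at 6 h, 5.89 ± 0.917 against 11.6 ± 0.530 TPM (SD, n = 3), and the trametinib means were 13.9 and 17.9 TPM at 24 h and 6 h.

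Klf11, on chromosome 12 (24651274 to 24662789, plus strand), had the widest range of the 10 genes, 9.47-fold from the lowest to the highest group mean. After 6 h the libraries read 0.925, 0.942 and 0.645 TPM untreated, 1.80, 1.56 and 1.80 TPM under chemotherapy, 3.14, 2.66 and 3.23 TPM under trametinib and 5.21, 4.73 and 5.20 TPM under the combination. The 4 groups were apart, with log2 differences from untreated cells of 0.57 ± 0.07 under chemotherapy, 1.13 ± 0.07 under trametinib and 1.72 ± 0.07 under the combination. After 24 h the libraries read 3.08, 2.94 and 3.16 TPM untreated, 6.91, 6.79 and 6.46 TPM under chemotherapy, 7.97, 7.37 and 7.92 TPM under trametinib and 7.49, 8.04 and 8.24 TPM under the combination. At 24 h trametinib and the combination overlapped. Since Klf11 was under 1 TPM in untreated cells at 6 h, its log2 differences there depend most on the pseudocount: as a plain ratio of means the combination was 6.03-fold at 6 h and 2.59-fold at 24 h.

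Klf13, a Sin3-binding factor known to activate the chemokine gene Ccl5 in T cells, lies on chromosome 7 (63886351 to 63938915, minus strand) and varied least, 1.38-fold between the lowest and highest group means. The 6 h libraries gave 15.98, 15.8 and 16.05 TPM untreated, 14.8, 14.7 and 14.7 TPM under chemotherapy, 15.1, 15.996 and 16.1 TPM under trametinib and 16.8, 14.9 and 15.99 TPM under the combination. The 24 h libraries gave 17.3, 17.4 and 16.8 TPM untreated, 15.1, 15.8 and 16.95 TPM under chemotherapy, 16.6, 16.5 and 19.01 TPM under trametinib and 12.9, 12.6 and 12.2 TPM under the combination. All 3 combination libraries at 24 h lay below the other 21 libraries, with a log2 difference from untreated cells of -0.42 ± 0.05.

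The first comparison asks what chemotherapy did alone. In the limma fit over all 12581 genes, 2 of the 10 genes, Klf4 and Klf11, were called higher at 6 h (adjusted p under 0.05), where 11.3% of all genes were higher, and 1, Klf7, was called lower, where 13.5% were lower. At 24 h 7 of 10 were called higher, against 34.9% of all genes, and Klf9 lower, against 24.3%. Klf10 had the largest difference and Klf5, Klf6, Klf11 and Klf4 followed between 0.87 and 1.00. Because these contrasts were in view when the genes were chosen, nothing is read from these shares. The call of Klf7 at 6 h, -0.28 ± 0.09, ended without untreated replicate 2 (-0.24), chemotherapy replicate 2 (-0.20) or chemotherapy replicate 3 (-0.28). At 6 h the fit without chemotherapy replicate 1, the library with Klf2 at 5.13 TPM, called 3 of the 10 genes lower in place of 1.

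Trametinib alone placed the genes on both sides of untreated cells. At 6 h 5 of 10 genes were called higher, where 35.9% of all genes were, and Klf5 and Klf9 lower, where 18.9% were. At 24 h 6 were called higher, against 32.4%, and Klf4, Klf5 and Klf9 lower, against 26.3%. Klf3 and Klf11 lay above untreated cells by more than 1 log2 unit at both times. The medians over the 10 genes were 0.22 at 6 h and 0.51 at 24 h, against 0.10 and 0.04 over all genes. The 6 h call of Klf4 (0.22 ± 0.08) ended without untreated replicate 2 (0.21) or 3 (0.21) or trametinib replicate 1 (0.21) or 3 (0.20), that of Klf7 (0.27 ± 0.09) without untreated replicate 1 (0.23) or trametinib replicate 2 (0.20), and the 24 h call of Klf2 without untreated replicate 1 (0.52).

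With the combination at 6 h 4 of 10 genes were called higher, against 38.6% of all genes, and Klf9 lower, against 19.8%. At 24 h 7 were called higher, against 39.6%, and Klf9 and Klf13 lower, against 23.8%. On the log2(TPM + 1) scale the 3 genes farthest above untreated cells at 24 h were Klf10, Klf6 and Klf3. As a plain ratio of means Klf11 (3.06 to 7.93 TPM) lay farther above than Klf3 (9.99 to 23.7 TPM). The summed TPM of the 10 genes was 257 ± 7.75 against 131 ± 0.814 in untreated cells (SD, n = 3). The 24 h call of Klf2 (0.46) ended without untreated replicate 1 (0.38) or 2 (0.43), or combination replicate 2 (0.32) or 3 (0.48).

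TPM are shares, and dividing each library by a median ratio over the tested genes moved the median of all genes by -0.11 for the combination against untreated cells at both times and by -0.13 for the combination against chemotherapy at 6 h. The share of calls that were higher then went from 65.5% to 52.3% with trametinib at 6 h, and from 66.1% to 51.2% and 62.4% to 50.5% with the combination at 6 h and 24 h. After that rescaling Klf2, Klf5 and Klf7 lay below untreated cells with the combination at 6 h, at -0.05, -0.08 and -0.04, where they had been above by 0.04, 0.03 and 0.09. With trametinib at 24 h Klf13 went from 0.01 to -0.03, and the calls of Klf4 with trametinib at 6 h (0.14) and of Klf2 with the combination at 24 h (0.38) ended.

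**Figure D3:**
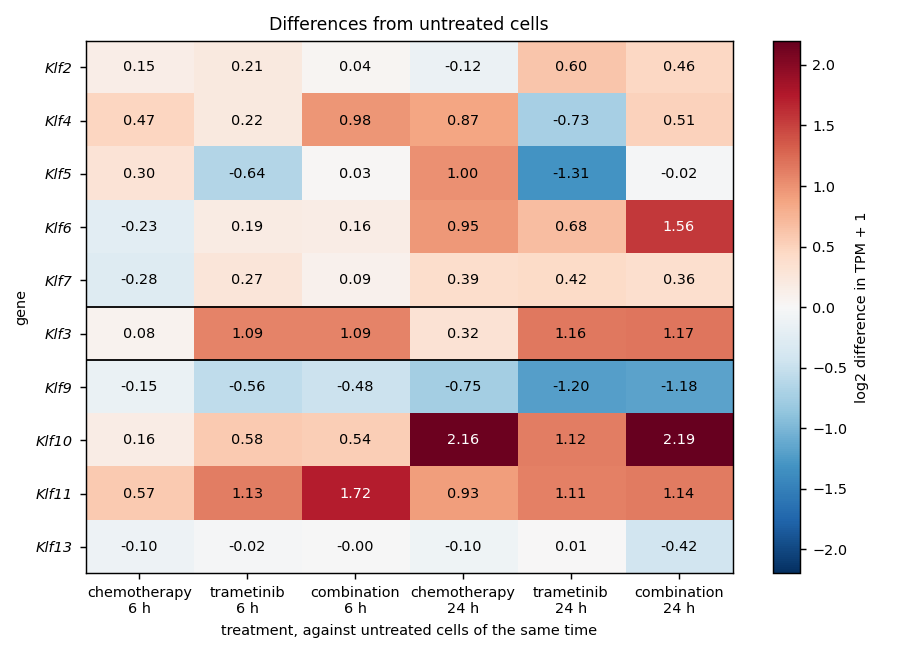
Log2 difference in TPM + 1 of each gene from untreated cells of the same time, printed in each cell and coloured from blue (lower) to red (higher), with black lines between activators, Klf3 and Sin3-binding members. Klf9 is negative in all 6 columns and Klf10 and Klf11 positive in all 6, while rescaling by a median ratio turns the sign of Klf2, Klf5 and Klf7 with the combination at 6 h and of Klf13 with trametinib at 24 h.

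Set against each drug alone, the combination lay near 1 drug for some genes, and near both or apart from both for others. Against chemotherapy it was higher for 6 of 10 genes at 6 h and 4 at 24 h, beside 39.7% and 30.3% of all genes, and lower for 2 and 4, beside 16.4% and 23.2%. Against trametinib it was higher for 3 genes at 6 h (Klf4, Klf5 and Klf11) and 4 at 24 h (Klf4, Klf5, Klf6 and Klf10), beside 12.3% and 31.4%, and lower for none at 6 h and for Klf13 at 24 h, beside 6.53% and 18%. These comparisons share the combination libraries. Klf3 and Klf9 lay near the level of trametinib alone at 24 h, with differences of 0.01 ± 0.08 and 0.02 ± 0.09, and Klf10 near that of chemotherapy alone, with 0.03 ± 0.08. Each of these 3 small values changed sign after median ratio rescaling, to -0.07, -0.05 and -0.02. Klf5 lay between its extremes, 1.02 ± 0.11 under chemotherapy and 1.29 ± 0.11 over trametinib. Klf4 also lay between them at 24 h, differing by -0.36 from chemotherapy and 1.23 from trametinib. In the same order Klf6 differed by 0.61 and 0.88, Klf13 by -0.32 and -0.43, and Klf7 by -0.03 and -0.05.

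In the comparison with chemotherapy 3 calls ended when single libraries were left out. Klf5 at 6 h (-0.27 ± 0.11) was not called without chemotherapy replicate 1 (-0.15) or 3 (-0.30), or combination replicate 1 (-0.25) or 2 (-0.22). Klf11 at 24 h (0.21 ± 0.07) was not called without chemotherapy replicate 3 (0.18) or combination replicate 2 (0.20) or 3 (0.18), nor after median ratio rescaling (0.17) or with a pseudocount of 0.1 (0.23). Klf2 at 24 h (0.59 ± 0.20) was not called without chemotherapy replicate 2 (0.46) or combination replicate 2 (0.45). After rescaling, the share of calls that were higher was 51.2% in place of 70.8% against chemotherapy at 6 h, and 52.7% in place of 65.4% and 51.0% in place of 63.6% against trametinib at 6 h and 24 h.

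The log2 effect of the combination was also set against what its parts add up to. At 24 h it was under the sum for Klf10 (-1.09 ± 0.11) and Klf11 (-0.90 ± 0.10), both of which lay above untreated cells with each single treatment. Klf7, Klf13 and Klf3 were under the sum by smaller amounts, -0.45 ± 0.12, -0.33 ± 0.08 and -0.31 ± 0.12. Klf9 was above the sum by 0.77 ± 0.12. Klf6 was within its error of the sum, -0.07 ± 0.12, and its mean with the combination was 2.99-fold the untreated one. At 6 h the largest departures were 0.38 ± 0.15 for Klf5 and -0.31 ± 0.28 for Klf2. The value of Klf4 at 24 h, 0.36 ± 0.11, was 0.27 without untreated replicate 3 and 0.33 without combination replicate 3.

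**Figure D4:**
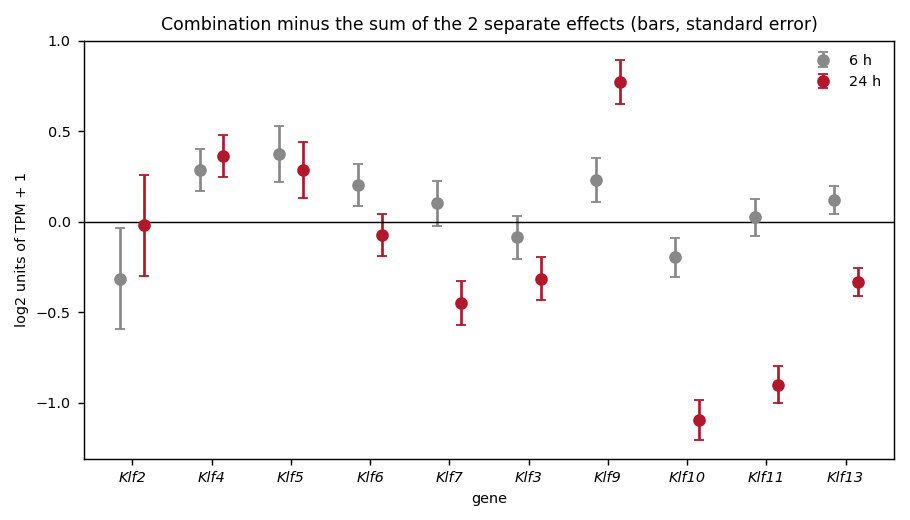
Difference between the combination effect and the sum of the chemotherapy and trametinib effects for each gene, in log2 units of TPM + 1, at 6 h (grey) and 24 h (red), with bars for the standard error. At 24 h Klf10 and Klf11 lie lowest, at -1.09 and -0.90, and Klf9 highest, at 0.77.

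Untreated cells themselves changed between the times. Against 6 h, 5 of 10 genes were called higher at 24 h, beside 29.4% of all genes, and Klf2 and Klf10 lower, beside 31.4%. Klf11 was 3.66-fold higher, and Klf2 and Klf10 were 2.26-fold and 1.97-fold lower. Each treatment difference at 24 h is therefore relative to a control that had moved since 6 h. The call of Klf3 between the times (0.25 ± 0.08) ended without 6 h replicate 2 (0.22) or 24 h replicate 3 (0.19). The Klf3 sum includes Klf3-202, which took a mean of 23.4% of it in untreated cells at 24 h and 3.91e-06% at 6 h. The main transcript took 100% of a mean sum of 8.25 TPM at 6 h and 76.6% of 9.99 TPM at 24 h. By these shares the main transcript was not higher at 24 h, and the higher sum came with Klf3-202. The main transcript alone was not tested between the times.

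The 10 genes did not move as 1 block. Over the 8 group means of log2 values, Klf6 and Klf7, the pair with the most similar fingers, had a Pearson r of 0.84, as did Klf7 and Klf11. Klf3 and Klf11 had 0.81, Klf6 and Klf11 0.80, and Klf4 and Klf5 0.79. Klf2 and Klf4, also similar in their fingers, had -0.56. The lowest values were those of Klf3 with Klf9, -0.73, and of Klf9 with Klf10, -0.68. These are descriptions over 8 points from the same libraries.

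Among 8962 other genes with a mean of at least 5 TPM, the genes most like each member over the 24 libraries were named by Pearson r of log2(TPM + 1). Klf4 was most like Ccng1 (0.96), a p53 target, Ercc5 (0.96), a DNA repair nuclease, and Cdc42bpg (0.95). Klf6 was most like Ints6 (0.99), Kif15 (0.98) and Tnnc1 (0.97), and Klf3 like Fzd6 (0.98), Mxd4 (0.97), a MAX partner, and Col6a1 (0.97). For Klf11 these genes were Stard10 (0.98), Tef (0.98) and Ccdc82 (0.97). For Klf9 they were Leprotl1 (0.97), Slc7a11 (0.96), the cystine transporter, and Uhrf1bp1l (0.95). For Klf10 they were Ska2, Ric8b and Tmco1 (each 0.97), and for Klf7 Trps1 (0.97), March7 (0.97) and the SP factor Sp3 (0.96). For Klf5 they were Scmh1 (0.95), Fxr2 (0.94) and Zfp365 (0.94), and for Klf2 Lman2 (0.93), Mrpl54 (0.92) and Scarf2 (0.92). Klf13 had no gene as close, with Tfcp2 highest at 0.83. The 24 points share 8 groups, so these values reflect group means for the most part.

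Genes outside the 10 were tested with limma and Benjamini-Hochberg adjusted p-values over the 12581 genes. Their lists were also chosen with earlier results of these data known, and genes were named from them in part by a small p. The p-values carry that choice. Klf16, a short Sin3-binding family member, fell under trametinib at 6 h from 33.1 ± 0.453 to 21.8 ± 1.20 TPM (SD, n = 3, log2 difference -0.58 ± 0.06, adjusted p = 2.93e-07). With chemotherapy at 24 h it rose from 19.6 ± 0.186 to 30.6 ± 0.920 TPM (0.62 ± 0.06, adjusted p = 1.12e-07).

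Of the 9 SP factors, which compete for the same GC-rich sites, 4 passed the filter. With trametinib 2 of the 4 rose and none fell at each time, and with chemotherapy at 24 h 2 rose and none fell. Their median log2 differences were 0.33 with trametinib at 6 h and at 24 h and 0.48 with chemotherapy at 24 h. Sp3, which can activate or repress, rose from 66.2 ± 3.73 to 105 ± 5.68 TPM with chemotherapy at 24 h (limma adjusted p = 1.75e-06) and to 109 ± 2.18 TPM with the combination (adjusted p = 4.38e-07). Sp4, an activator of neuronal genes, rose from 0.821 ± 0.0247 to 2.48 ± 0.283 TPM with trametinib at 6 h (adjusted p = 1.01e-08). Sp1, the ubiquitous activator, differed by -0.01 ± 0.09 with trametinib at 24 h (adjusted p = 0.911).

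The counts of rises and falls in this list and in those that follow stand beside large shares of all genes. With trametinib at 6 h 35.9% of all genes were higher and 18.9% lower, with a median of 0.10. At 24 h these were 34.9% and 24.3% with chemotherapy (median 0.06), 32.4% and 26.3% with trametinib (0.04), and 39.6% and 23.8% with the combination (0.10). Nothing is called particular to a list from its count.

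Of 16 cofactors and ubiquitin ligases of the family, 7 rose and 1 fell with trametinib at 6 h, and 9 rose and 2 fell with either single treatment at 24 h. The medians were 0.20, and 0.21 with each treatment at 24 h. Kat2b, an acetyltransferase, rose with trametinib at 6 h from 8.97 ± 1.08 to 19.0 ± 1.94 TPM (limma adjusted p = 5.4e-06). Fbxw7, a ubiquitin ligase subunit that targets Klf2 and Klf5 among other proteins, rose with chemotherapy at 24 h from 9.13 ± 0.721 to 16.8 ± 0.346 TPM (adjusted p = 3.3e-08). With trametinib at 24 h Fbxw7 differed by -0.06 ± 0.08 (adjusted p = 0.505).

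The inputs of the family were read next. All 8 genes of the ERK output list fell with trametinib and with the combination at 6 h, with medians of -1.81 and -1.76 against 0.10 and 0.11 over all genes. At 24 h 7 fell and 1 rose with trametinib, and 7 fell and none rose with the combination. With chemotherapy at 24 h 2 rose, 1 fell and 5 were not called, with a median of 0.14. Dusp6, the ERK phosphatase, went from 73.5 ± 3.70 to 24.7 ± 7.06 TPM with trametinib at 6 h (limma adjusted p = 1.61e-08), and Etv4, an ETS factor induced by ERK, from 95.7 ± 2.15 to 19.1 ± 5.43 TPM (adjusted p = 7.72e-09). Egr1, an immediate early zinc finger gene, rose with chemotherapy at 24 h from 3.24 ± 0.565 to 24.2 ± 1.49 TPM (adjusted p = 8.61e-14), the group where Klf4 and Klf5 were highest, and stood at 1.21 ± 0.285 TPM with the combination.

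Of the 8 genes of the ERK5 and MEF2 route 6 passed the filter. With trametinib 2 rose and none fell at 6 h, and 1 rose and 1 fell at 24 h, with a median of 0.08 at both times. Mef2a rose from 18.5 ± 0.249 to 29.6 ± 1.77 TPM with the combination at 24 h (limma adjusted p = 9.99e-07). Of 12 TGF-beta and SMAD genes 6 rose and none fell with chemotherapy at 24 h, 5 rose and 2 fell with trametinib, and 7 rose and 1 fell with the combination, with medians of 0.22, 0.12 and 0.31. Smad7, the inhibitory SMAD, rose with chemotherapy at 24 h from 3.92 ± 0.662 to 18.8 ± 2.16 TPM (adjusted p = 9.84e-11) and with the combination to 13.6 ± 0.602 TPM (adjusted p = 2.06e-09), the groups where Klf10 was highest. With trametinib at 24 h Smad7 stood at 4.43 ± 0.759 TPM (adjusted p = 0.353), where Klf10 was 2.36-fold the untreated mean. Tgfb2, a ligand, rose with trametinib at 24 h from 1.139 ± 0.0509 to 4.53 ± 0.722 TPM (adjusted p = 3.54e-10).

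Of 6 genes of the glucocorticoid receptor list 5 passed, and at 24 h 2 rose and 3 fell with chemotherapy, 3 rose and 2 fell with trametinib, and 2 rose and 2 fell with the combination, with medians of -0.37, 0.26 and 0.08. Tsc22d3, a glucocorticoid target that FOXO factors also induce, rose with all 3 treatments at 24 h, from 11.8 ± 0.806 to between 28.1 ± 0.655 and 38.1 ± 1.44 TPM (largest limma adjusted p of the 3 4.85e-11), where Klf9 was lower.

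Of 19 genes reported as targets of Kruppel-like factors 15 passed. With chemotherapy at 24 h 9 rose and 3 fell, with trametinib 6 rose and 8 fell, and with the combination 10 rose and 4 fell, with medians of 0.56, -0.16 and 0.37. Cdkn1a, which codes for p21, went with Klf4 in direction at 24 h: it rose with chemotherapy from 173 ± 20.0 to 372 ± 35.2 TPM (limma adjusted p = 1.68e-07), fell with trametinib to 68.2 ± 6.14 TPM (adjusted p = 1.19e-08) and rose with the combination to 257 ± 16.8 TPM (adjusted p = 0.000299). Klf6, which can also activate p21, lay above untreated cells by 0.68 with trametinib at 24 h, where Cdkn1a fell. A link of Cdkn1a to either factor was not tested. Ccnd1, the gene of cyclin D1, fell with trametinib at 6 h from 225 ± 11.7 to 64.9 ± 23.5 TPM (adjusted p = 1.2e-08). S1pr1, a receptor gene that Klf2 is known to induce in T cells, rose with trametinib at 24 h from 2.07 ± 0.0720 to 11.8 ± 0.616 TPM (adjusted p = 1.04e-12), and Sele, the E-selectin gene, which Klf2 is known to repress in endothelium, fell from 5.31 ± 0.111 to 0.225 ± 0.0366 TPM (adjusted p = 5.52e-15). In the same comparison Thbd, the thrombomodulin gene, which Klf2 is known to induce, fell by 0.88 ± 0.07 on the log2 scale (limma adjusted p = 2.93e-09), and Vcam1, an adhesion molecule gene it is known to repress, rose by 0.65 ± 0.06 (adjusted p = 5.73e-08). Both were chosen after their values were seen. In bulk RNA a lower level from fewer cells of a type and from less RNA per cell cannot be told apart.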

How the data were processed

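RNA of LLC1 cells was sequenced as mRNA in 24 libraries, with 3 libraries for each of the 8 groups. The deposited values are TPM of 82934 transcripts in every library, made by the authors with kallisto 0.45 after bcl2fastq 2.17.1.14 on GRCm38, per the submitters' processing notes. Each library sums to 1000000 TPM, so sequencing depth is unknown and a count model could not be used.

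Transcript TPM were summed per gene with GENCODE M21, which matched 79662 transcripts. The remaining 3272 carried 4.45% to 5.98% of a library's TPM and were not used. Values were changed to log2(TPM + 1), and the 12581 genes that reached 1 TPM in 3 or more libraries were fitted with limma 3.58.1 in R 4.3.3, with 8 group means, a trend on level and 16 residual degrees of freedom. Benjamini-Hochberg adjustment of two-sided p-values ran over all 12581 genes, with 0.05 as the threshold for a call. The script was tested on simulated data. Whether the triplicates were separate cultures is not in the labels, so a p-value measures only how these libraries spread, which may be technical.

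The 10 genes and all gene lists were chosen with earlier results of these data known. Beside the 10 genes the text names, by rule, list genes among the first 3 of a list or the 4 called genes with the smallest p in a comparison, and the 3 genes most like each member. Thbd and Vcam1 were named outside this rule, after their values were seen. Promoters, from the RefSeq table for GRCm38.p6, matched 8 of the 10 genes by symbol. Finger stretches came from GENCODE M21 transcripts. Coordinates are 1-based. Alternatives covered the pseudocount, the filters, rescaling, the libraries fitted, the replicate number, protein-coding transcripts, the correction for multiple tests and leaving out each library.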

Additional observations from a re-analysis of the deposited data

Results flagged for a closer look

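These are effects against untreated cells that differed between 24 h and 6 h, each given as the log2 effect at 24 h minus that at 6 h. For 2 of the described genes the effect had opposite signs at the times, with every treated library above the untreated ones at 1 time and below at the other. These differences were not tested, because the genes were chosen with these values known. For Klf7 with chemotherapy the difference was 0.68 ± 0.12 (from -0.28 to 0.39), and for Klf4 with trametinib it was -0.95 ± 0.11 (from 0.22 to -0.73). With chemotherapy 19.6% of all genes lay wholly below untreated cells at 6 h and 38.0% wholly above at 24 h. With trametinib 39.6% lay wholly above at 6 h and 29.6% wholly below at 24 h. How many genes did both was not counted. Both 6 h calls ended when single libraries were left out, and that of Klf4 also after median ratio rescaling (0.14).

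For genes outside the 10 the difference between the times was tested with limma, with Benjamini-Hochberg adjusted p over all genes. Their lists too were chosen with earlier results of these data known, and only named genes with an adjusted p under 0.05 are given. The p-values therefore carry that choice. With chemotherapy Egr1 differed by 2.72 (adjusted p = 3.76e-11), Smad7 by 2.08 (adjusted p = 3.99e-08) and Tsc22d3 by 1.63 (adjusted p = 6.9e-10). Their effects at 6 h were -0.14, -0.06 and -0.01, and at 24 h they rose. Fbxw7 differed by 1.08 (adjusted p = 3.13e-07), from -0.26 at 6 h to 0.82 at 24 h. Sp3 differed by 0.82 (adjusted p = 1.82e-05), from -0.17 to 0.65, and Mef2a by 0.73 (adjusted p = 4.42e-05), from -0.34 to 0.40. Ccnd1 differed by 0.69 (adjusted p = 0.0180), Sele by 0.66 (adjusted p = 7.17e-05), Klf16 by 0.56 (adjusted p = 7.07e-05) and Sp4 by 0.33 (adjusted p = 0.0226).

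With trametinib Cdkn1a differed by -1.54 (limma adjusted p = 8.72e-07), from 0.21 at 6 h to -1.33 at 24 h. Ccnd1 differed by 1.135 (adjusted p = 0.000534), its fall being smaller at 24 h (-0.70) than at 6 h (-1.83). Tgfb2 differed by 1.11 (adjusted p = 3.41e-06), from 0.26 to 1.36, and Tsc22d3 by 0.80 (adjusted p = 6.06e-06), from 0.39 to 1.19. Klf16 differed by 0.66 (adjusted p = 1.34e-05), from -0.58 to 0.08. Smad7 differed by 0.57 (adjusted p = 0.0163), from -0.43 to 0.14, and S1pr1 by 0.56 (adjusted p = 0.00275), from 1.49 to 2.06.

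With the combination Smad7 differed by 1.86 (limma adjusted p = 1.14e-07), from -0.28 at 6 h to 1.57 at 24 h. Ccnd1 differed by 1.29 (adjusted p = 0.000101), its fall being smaller at 24 h (-0.57) than at 6 h (-1.86). Tgfb2 differed by 1.28 (adjusted p = 2.99e-07), from 0.36 to 1.64, and Klf16 by 0.90 (adjusted p = 2.03e-07), from -0.60 to 0.30. Egr1 differed by 0.74 (adjusted p = 0.000221), its fall being smaller at 24 h (-0.94) than at 6 h (-1.68). Fbxw7 differed by 0.65 (adjusted p = 7.67e-05), from -0.11 to 0.54. Tsc22d3 differed by 0.64 (adjusted p = 3.81e-05), from 0.66 to 1.30, and Mef2a by 0.43 (adjusted p = 0.00439), from 0.22 to 0.64. Sp1 differed by -0.45 (adjusted p = 0.00729), from 0.27 to -0.18, and Cdkn1a by -0.55 (adjusted p = 0.0106), from 1.12 to 0.57.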

How the results depend on the processing

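None of the called differences of the 10 genes changed sign under the alternatives run. A change of sign was unlikely in advance, since a called difference lies well away from 0 and the alternatives used the same libraries. The counts of called genes moved most with the correction. Under the Bonferroni rule of the series (adjusted p under 0.10), higher and lower calls among the 10 genes became 1 and 0 with chemotherapy at 6 h, 3 and 1 with trametinib at 6 h, 3 and 0 for the combination against chemotherapy at 6 h, 2 and 1 for the same at 24 h, and 3 and 1 for untreated cells between the times, and 0 were lower with the combination at 6 h. List genes called higher and lower became 3 and 2 of 11 and 11 with chemotherapy, 10 and 6 of 26 and 10 with trametinib, and 16 and 7 of 31 and 13 with the combination at 6 h. At 24 h they became 17 and 3 of 32 and 10, 15 and 6 of 26 and 15, and 19 and 2 of 33 and 10 in the same order.

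Lower calls with chemotherapy at 6 h were 2 in place of 1 with a pseudocount of 0.1, with a mean of at least 5 TPM, after median ratio rescaling and with protein-coding transcripts only, and 0 when only the groups compared were fitted. The filter at a mean of 5 TPM, which drops Klf2 and Klf11, gave 1 higher call with chemotherapy at 6 h, 2 for the combination against chemotherapy at 24 h and 1 lower call between the untreated times. Rescaling gave 2 lower calls with the combination at 6 h and with chemotherapy at 24 h, 1 for the combination against trametinib at 6 h, and 16 list genes lower with trametinib at 6 h in place of 10. Lower calls for the combination against chemotherapy at 6 h were 1 with no filter and 0 with only the groups compared. The cause of these moves was not tested.

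Leaving out 1 library gave 0 to 3 lower calls with chemotherapy at 6 h, 1 to 2 at 24 h, 1 to 2 for the combination against chemotherapy at 6 h, 0 to 1 against trametinib at 6 h, 2 to 4 higher calls against chemotherapy at 24 h, and 7 to 16 list genes lower with chemotherapy at 6 h. The list count was 7 without untreated replicate 2 or chemotherapy replicate 2, in place of 11. At a pseudocount of 0.1 Klf5 stood 0.59 over the sum of the single effects at 24 h, in place of 0.29, and the change of the chemotherapy effect of Klf11 between the times was 0.14 in place of 0.36. No count moved by over 1.5 times with a replicate block: Klf2 with the combination at 24 h (0.46) lost its call and Klf5 with chemotherapy at 6 h (0.30) gained one. Libraries with the same replicate number at the same time deviated together with r of -0.36 to 0.33 (median -0.03), so the numbers were not taken to pair them. Without the filter the calls of Klf2 with the combination at 24 h and of Klf5 for the combination against chemotherapy at 6 h ended. With only the groups compared, those of Klf7 with chemotherapy and with trametinib and of Klf5 and Klf9 for the combination against chemotherapy ended, all at 6 h. The planned test of transcript shares was not run: it asked for 2 transcripts with a mean of 1 TPM over all libraries, and each of the 10 genes had 1. Depth is unknown, so the precision of Klf2 and Klf11, the lowest of the 10, is known only from the spread of 3 libraries.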
